A study of Rattus norvegicus with 6 samples.

Results

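Class I olfactory receptors are genes for odorant sensing in the nose, and their signals in newborn rat skeletal muscle were read here as the level and the spread that an array gives for genes thought to be silent in the tissue. The 128 receptors are the rows whose RefSeq accession maps to a symbol that starts with Or51 (45 rows), Or52 (72), Or55 (2) or Or56 (9), out of 26419 rows in all. Each receptor has 1 row and each is annotated as protein-coding. RefSeq lists 167 class I genes in the rat. The 39 without a matched row are 27 pseudogenes and 12 protein-coding genes.

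Muscle RNA came from 2 groups of 1-day-old male Wistar rats, with 3 biological replicates in each group and 1 single-colour (Cy3) NimbleGen array per replicate. The replicates are called pups below, although the labels do not say whether each is a single pup or a pool, nor from which litter it came. Lower birth weight (LBW) pups weighed between percentiles 5 and 25 at birth. The control pups of average birth weight (ABW) are given as percentiles 25 to 75 in the sample characteristics and as 50 to 75 in the treatment protocol. No gene was altered and no treatment is named for either group other than the overdose of anaesthetic by which the pups were killed, and the soleus and gastrocnemius muscles were taken as 1 tissue. All values below are log2 signals as normalized by the authors, so that a step of 1 is a doubling of brightness.

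Olfactory receptors are G protein-coupled receptors with a single coding exon. A sensory neuron of the nose usually transcribes a single receptor gene, and the receptor then signals through the G protein Golf, adenylyl cyclase 3 and a cyclic nucleotide-gated channel. Class I receptors, the branch that mammals share with fish, lie in a single cluster around the beta-globin genes and many of them bind carboxylic acids. A few olfactory receptors are known from tissues outside the nose, of which Or51e1, a receptor for short- and medium-chain fatty acids, is among the best described.

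The start of the gene is shown for 4 receptors, chosen because they are the brightest (Or51e1), the dimmest (Or52z13) and a pair with the same first coding bases and different signals (Or52e15 and Or52e15b). Each sequence holds the 250 bases before and the 50 bases from the annotated start in RefSeq. Capitals mark the start codon and, before it, TATAAA on either strand.
Or51e1 (GRCr8, chr1:166559971-166560270, + strand): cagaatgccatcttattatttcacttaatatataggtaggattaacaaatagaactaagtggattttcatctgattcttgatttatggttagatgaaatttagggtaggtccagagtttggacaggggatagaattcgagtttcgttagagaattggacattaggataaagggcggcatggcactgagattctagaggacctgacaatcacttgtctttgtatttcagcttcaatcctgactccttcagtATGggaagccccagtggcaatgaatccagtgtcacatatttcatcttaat
Or52z13 (GRCr8, chr1:167370502-167370801, + strand): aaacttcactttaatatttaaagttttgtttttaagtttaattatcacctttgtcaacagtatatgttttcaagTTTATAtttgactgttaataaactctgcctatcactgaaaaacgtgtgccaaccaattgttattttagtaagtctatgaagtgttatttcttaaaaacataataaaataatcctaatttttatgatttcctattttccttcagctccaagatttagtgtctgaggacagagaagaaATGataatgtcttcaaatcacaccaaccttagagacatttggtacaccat
Or52e15 (GRCr8, chr1:168761957-168762256, - strand): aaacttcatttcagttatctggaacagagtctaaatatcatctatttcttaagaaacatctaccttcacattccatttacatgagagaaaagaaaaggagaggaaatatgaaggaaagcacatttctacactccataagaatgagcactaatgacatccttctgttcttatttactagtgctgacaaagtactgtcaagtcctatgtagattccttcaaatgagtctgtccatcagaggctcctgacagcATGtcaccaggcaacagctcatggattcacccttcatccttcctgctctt
Or52e15b (GRCr8, chr1:168804236-168804535, - strand): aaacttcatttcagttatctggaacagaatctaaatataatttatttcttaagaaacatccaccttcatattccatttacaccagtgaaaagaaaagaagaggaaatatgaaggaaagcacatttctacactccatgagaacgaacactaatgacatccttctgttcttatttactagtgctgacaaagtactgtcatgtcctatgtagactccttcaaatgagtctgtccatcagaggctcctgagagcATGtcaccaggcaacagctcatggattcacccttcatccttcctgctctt
All 113 receptors with such a window begin with ATG at the annotated start, compared to 9.0% of the 33469 windows of all genes. The annotated start of these genes is therefore that of the reading frame, and where transcription would begin is not given. Most windows of all genes do not begin with ATG, so the comparisons below set unlike stretches of sequence side by side. In the 250 bases before it, the receptors had a median GC content of 36.0% and a median of 1 CpG, against 51.2% and 5 over all windows, and 30 of the 113 (26.5%) held no CpG, against 7.83% of all. Or51e1 had a GC content of 37.6% and 3 CpGs, which lies within the receptors' range of 23.6% to 52.4% and of up to 8 CpGs. TATAAA, searched on both strands, stood in 36 receptors (31.9%) and in 12.9% of all windows. TAATTA stood in 11 (9.73%, against 4.86%), CANNTG in 72 (63.7%, against 65.5%) and CCCNNGGG in 3 (2.65%, against 10.8%). These rates were not adjusted for the difference in GC content. Across the 113 receptors, which lie in 1 cluster and often share sequence, the GC content of these 250 bases and the mean signal had a Pearson r of 0.04 and a Spearman rho of 0.03.

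Nearly all class I receptors lay far below the middle of the array. Their median signal was 5.63 over the 6 arrays, which is 3.07 below the median of all rows (8.71), and their quartiles were 5.33 and 6.02. Of the 128 receptors, 3 had a mean signal under 5, 90 lay between 5 and 6, 30 between 6 and 7, and 5 at 7 or more. In total 105 (82.0%) were in the dimmest 25% of all rows, which ended at 6.21. Only Or51e1 was above the array median, and it was so on each of the 6 arrays, so that the share above the median was 0.78% on every array. Probes differ in how strongly they bind, so a difference in signal between receptors is not a measured difference in RNA, and the table holds no background or detection call from which the receptors' distance to zero signal could be read.

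**Figure D1:**
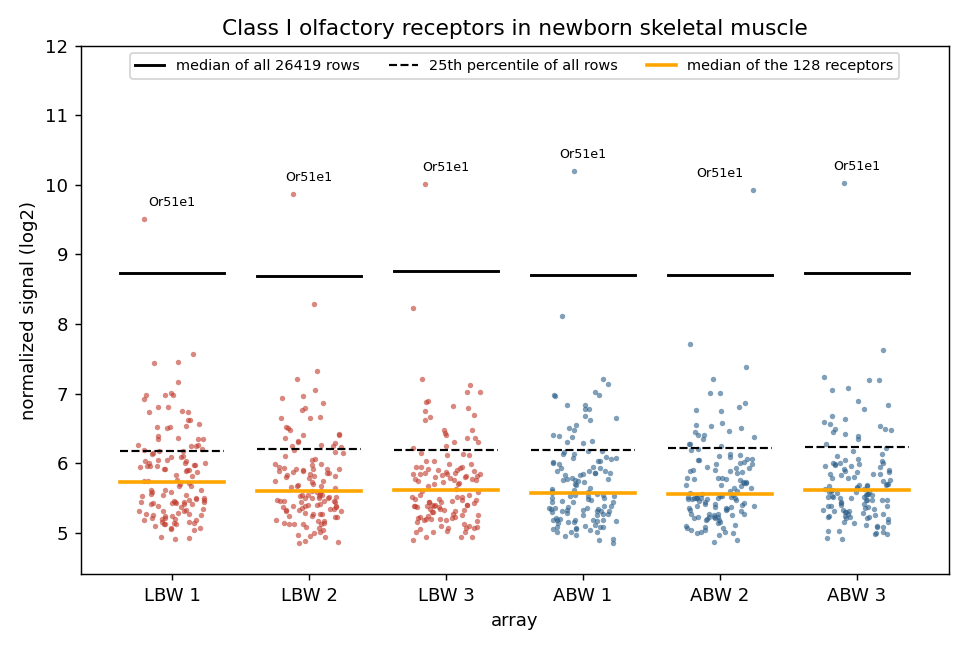
Normalized log2 signal (y axis) of the 128 class I receptors, each a point, on the 6 arrays (x axis; red LBW, blue ABW), with the median (solid) and 25th percentile (dashed) of all 26419 rows and the receptors' own median (orange). On each array 1 point, Or51e1, lies above the solid line, and the orange lines run from 5.56 to 5.72.

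The receptors held the same low position in every pup. Their median was 5.72, 5.60 and 5.61 in LBW 1, 2 and 3 and 5.57, 5.56 and 5.62 in ABW 1, 2 and 3, between 3.01 and 3.15 below the median of the same array. Their 95th percentile ran from 6.845 (ABW 2) to 6.995 (ABW 3), and their lowest value from 4.85 to 4.91. LBW 1 had the highest receptor median and mean (5.85, against 5.75 to 5.77 on the other arrays), and 39 of the 128 receptors (30.5%) were highest in LBW 1, whereas 16.2% of all rows and 26.9% of the 995 class II receptor rows were. LBW 3 was the lowest array for 41 receptors (32.0%), and the share of all rows that were lowest there was not computed. The receptors differed far more from each other than a receptor did between pups. The SD between receptors was 0.67, or 0.56 without Or51e1, and the median SD within a group of 3 pups was 0.13, against 0.16 for all rows and 0.11 for the dimmest 25%. Between any pair of arrays, the receptors' signals had a Pearson r from 0.90 to 0.95 over the 128 receptors, which share probes across arrays. Over the 6 arrays a receptor spanned a median of 0.36. For 89 receptors the span was under 0.5, and for 7 it was over 1.

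Or51e1 (NM_001000542) was at 9.51, 9.88 and 10.01 in LBW 1, 2 and 3 and at 10.20, 9.93 and 10.03 in ABW 1, 2 and 3. The 2 groups overlapped, because ABW 2 lay below LBW 3. Its signal was above those of 57.6% (LBW 1) to 65.6% (ABW 1) of all rows and exceeded the next receptor on the same array by 1.59 (LBW 2) to 2.40 (ABW 3). The mean of Or51e1 was 9.93, which is 2.20 above the mean of Or56b6c and a ratio of 4.58 in brightness. The difference between LBW and ABW was -0.25 (SE 0.15, adjusted p = 0.550 by limma), with a 95% confidence interval from -0.62 to 0.11. It was -0.11 without LBW 1.

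The next brightest receptors were Or56b6c, Or52s1b, Or52n4e and Or52e15b. Or56b6c (NM_001001034) was at 7.44, 8.29 and 7.20 in the LBW pups and at 8.12, 7.71 and 7.63 in the ABW pups, and the ABW values lay inside the LBW range. Or52s1b (NM_001001282) was at 7.56, 7.20 and 8.24 in LBW and at 7.14, 7.21 and 7.05 in ABW pups. Or52n4e and Or52e15b were the steadiest of the 5, with spans of 0.27 around 7.24 and 0.16 around 7.02. At the other end, the means of Or52z13 (4.95), Or51l4 (4.97), Or56a5 (5.00), Or52n3 (5.02) and Or52e15 (5.04) lay within 0.091 of each other, less than the median SD between pups. The order of these 5 is therefore not resolved. Or51a41 had the smallest span of all 128, with values from 5.19 to 5.24.

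The subfamilies did not stand apart in level. The median was 5.70 for Or51, 5.62 for Or52, 5.69 for the pair of Or55 receptors and 5.36 for Or56, against quartiles of 5.33 and 6.02 over all 128. Among the named groups of 4 or more receptors, the medians ran from 5.19 (Or52z, 4 receptors) to 6.01 (Or51a, 8 receptors). Receptors alike in sequence did not always have like signals. In 26 pairs made of 34 receptors, at least 45 of the first 50 coding bases were the same, and the mean signals of these pairs differed by 0.02 to 1.97 (median 0.58), compared to a median of 0.52 over all 6328 pairs. Or51a25, Or51a25b and Or51a39 have the same first 50 coding bases and means of 6.03, 6.01 and 6.49. Or52e15, Or52e15b and Or52e15c also have the same 50 bases, and Or52e15 and Or52e15b also share 235 of the 250 bases shown before them. Or52e15 was between 5.01 and 5.08 and Or52e15c between 5.07 and 5.39, while Or52e15b was between 6.92 and 7.08 on all 6 arrays. Where on these genes the array's probes lie was not analysed here, so that shared probe sequence could not be assessed.

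The cluster itself holds genes that muscle samples show brightly, which places the receptors' signals beside a contrast from the same stretch of chromosome 1. Hbb, among them, is an erythroid marker, and which cells of the tissue gave its signal was not tested. RefSeq lists 219 genes from the first to the last class I gene, and 139 of them were matched to a row, 128 being the receptors. Of the 5 beta-globin genes with a row, Hbb, an adult globin chain, was between 15.13 and 15.30 and Hbb-b1 between 13.67 and 15.22, while Hbe1, Hbe2 and Hbg1, of the embryonic and fetal type, had means of 7.58, 7.69 and 6.92. The class I receptors next to the globin genes stayed low. On one side Or52z1 had a mean of 5.31, Or52a5 of 5.87 and Or52a5b of 5.27, and on the other Or51b4b had 6.68, Or51b4 5.58 and Or51b17 5.56. Or51a39, the next receptor to Or51e1 with a row on one side, was at 6.49. Trim21 and Trim5, antiviral ring-finger genes inside the cluster, had means of 9.03 and 10.75, and the ubiquilin genes Ubqln5 and Ubqlnl were at 5.96 and 5.17. Trim21, at 8.58, 8.86 and 8.49 in LBW and 9.16, 9.68 and 9.43 in ABW pups, was the 1 row of the cluster that the study's rule called, with a difference of -0.78 (SE 0.16, adjusted p = 0.2495 by limma). A pair of olfactory receptors in the same stretch keep their older symbols and are not among the 128. Olr59 was between 5.52 and 5.88. Olr193 was between 5.19 and 5.98 in 5 pups and at 8.09 in LBW 3.

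**Figure D2:**
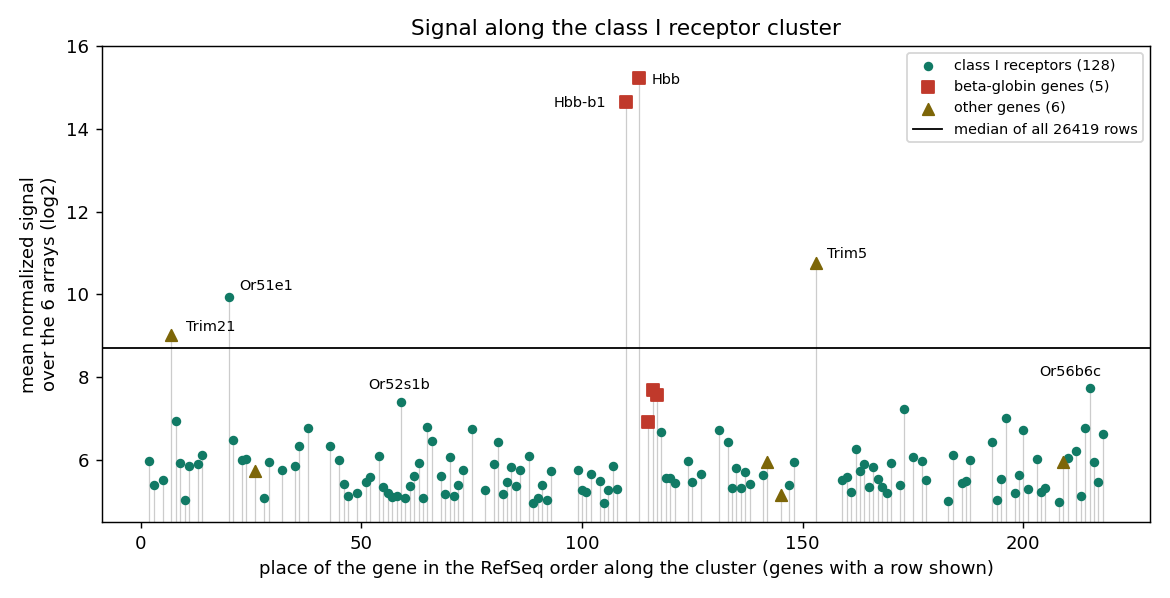
Mean normalized log2 signal over the 6 arrays (y axis) of the 139 genes with a row, by their place in the RefSeq order of the cluster (x axis), for class I receptors (green circles), beta-globin genes (red squares) and other genes (brown triangles), with the median of all rows as a line. Hbb and Hbb-b1 lie at 15.22 and 14.65 between receptors that lie mostly under 7, and Or51e1 is the receptor above the line.

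Muscle genes lay far above the receptors, and genes of other tissues mostly among them. Of the 18 skeletal muscle markers listed, 14 were matched to 15 rows, and all 15 lay above the receptors' 95th percentile of 6.79. They ran from Myod1, a myogenic regulator, at 10.58 to Acta1, skeletal actin, at 15.34. All 12 housekeeping genes also lay above that percentile, the dimmest being Tbp at 10.00. Of the olfactory neuron markers, 5 of 12 were matched to a row. Omp, the marker protein of mature olfactory neurons, was at 6.34, and the channel subunits Cnga2 and Cnga4 were at 5.22 and 5.69, all inside the receptors' range. Adcy3 (9.45) and Ncam2 (9.56), which other cells express too, were above the array median. Other sensory receptors were as dim as class I. The median was 5.51 for 995 class II olfactory receptors, of which 6 (0.60%) exceeded the array median, Or8b57 at 9.18 being the brightest. It was 5.20 for 55 vomeronasal receptors, 5.23 for 22 bitter taste receptors and 5.65 for 17 trace amine receptors. Of 20 genes restricted to other tissues, such as those of the pituitary, pancreas, retina and mammary gland, 15 lay at or below 6.79, with a median of 6.27, and Cpa1, a pancreatic carboxypeptidase, was the brightest at 10.54.

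No class I receptor was called different between LBW and ABW pups. The study's rule, an unadjusted p under 0.05 with a fold change of at least 1.5, called 0 of the 128 by limma. It called 4.28% of all rows (1131), with 2.38% higher and 1.9% lower in LBW. These calls, and those named by the study's rule elsewhere, come from the fit made here. The paper's own analysis gave a smaller count of genes. At an unadjusted p under 0.05 alone, 3 receptors passed (2.34%), against 12.4% of all rows, and 0 receptors and 0 rows passed after Benjamini-Hochberg adjustment over all rows, with 0.347 as the smallest adjusted p of a receptor. The 2-tailed Student test that the statistics section names also called 0 receptors by the same rule and 0 after adjustment, with 8 (6.25%) at an unadjusted p under 0.05. Over all rows it called 586 (2.22%) by the rule, 0 after adjustment and 2515 (9.52%) at an unadjusted p under 0.05. The class II receptors had 10 calls in 995 rows (1.01%), all higher in LBW, and the dimmest 25% of all rows had 46 in 6605 (0.70%).

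The differences between the groups were small in both directions. The median of LBW minus ABW was 0.03 and the SD was 0.14, whereas over all rows the median was -0.02 and the SD 0.31, and over the dimmest 25% -0.02 and 0.17. For 76 receptors the difference was under 0.1 in size, for 7 it was over 0.3, and 95% of the receptors lay within 0.30 of 0, a ratio of 1.23. The same limit was 0.42 for class II receptors, 0.36 for the dimmest 25% and 0.63 for all rows. Of the 128 receptors, 71 (55.5%) were higher in LBW, compared to 44.4% of all rows and 55.1% of class II receptors. By subfamily, 28 of 45 Or51, 35 of 72 Or52, 1 of 2 Or55 and 7 of 9 Or56 receptors were higher. All 6 Or51f receptors (from 0.01 for Or51f23c to 0.47 for Or51f4) and all 5 Or52s receptors (from 0.02 for Or52s19 to 0.53 for Or52s1b) had a difference above 0, and all 4 Or52z receptors one below 0 (from -0.10 to -0.01). None of these 15 was called, and in 12 of them the groups overlapped. They are shown for their shared sign, and other receptor groups were mixed, such as Or51b (1 of 5 higher) and Or52n (4 of 12). The mean of the Or51f receptors in LBW 3, 5.63, lay inside the ABW range of 5.58 to 5.68. The median difference of all 128 receptors was -0.01 without LBW 1, and between 0.01 and 0.03 with any other pup left out. The 95% confidence interval of the difference lay within 1.5-fold in both directions for 103 receptors. For the other 25 these arrays do not limit the difference to that size. The bound farthest from 0 was 1.14, for Or52s1b.

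**Figure D3:**
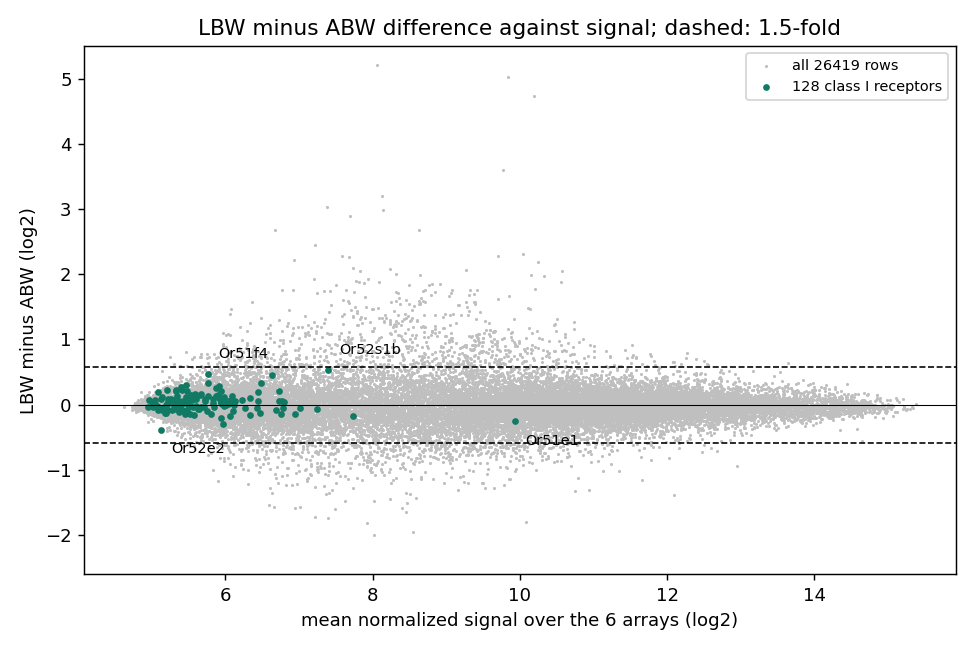
LBW minus ABW difference (y axis, log2) against the mean signal over the 6 arrays (x axis, log2) for all 26419 rows (grey) and the 128 class I receptors (green), with dashed lines at 1.5-fold. No green point passes a dashed line, and the receptors run from -0.38 (Or52e2) to 0.53 (Or52s1b).

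The largest differences above 0 varied from pup to pup. Or52s1b, whose values are given above, overlapped between the groups because LBW 2 was just below ABW 2. Its difference was 0.53 (SE 0.25, adjusted p = 0.450 by limma), and it was 0.77 without LBW 2, which passed the study's rule, and 0.25 without LBW 3. Or51f4 (NM_001001008) was at 5.96, 6.29 and 5.73 in LBW 1, 2 and 3 and at 5.70, 5.49 and 5.38 in ABW 1, 2 and 3. All LBW values were above all ABW values, but LBW 3 and ABW 1 lay closer than the SD of either group. The difference was 0.47 (SE 0.16, adjusted p = 0.347 by limma; 2-sided p = 0.1 by exact permutation, which groups of 3 cannot go below), and without LBW 3 it was 0.60 and passed the study's rule. Or52b2 (NM_001000550) was at 7.46 in LBW 1 and at 6.65 and 6.47 in the other LBW pups, compared to 6.32, 6.34 and 6.57 in ABW pups. Its difference of 0.45 (SE 0.26, adjusted p = 0.524 by limma) was 0.16 without LBW 1, and 0.65 without LBW 3, where it passed the study's rule. Or51l14 was at 6.25, 5.49 and 6.03 in LBW and 5.31, 5.49 and 5.98 in ABW pups, a difference of 0.33 that was 0.17 without LBW 1, 0.19 without ABW 1, 0.55 without LBW 2 and 0.53 without ABW 3. Or51a39 was at 6.62, 6.32 and 7.02 in LBW and 6.03, 6.50 and 6.44 in ABW pups, a difference of 0.33 that was 0.145 without LBW 3, 0.18 without ABW 1 and 0.49 without LBW 2. In both, the groups overlapped.

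The largest differences below 0 were smaller. Or52e2 (NM_001001270) was at 4.91, 4.94 and 4.93 in LBW pups and at 4.86, 6.0 and 5.08 in ABW pups. A single pup, ABW 2, stood apart from the others, and the difference of -0.38 (SE 0.29, adjusted p = 0.633 by limma) was -0.04 without it and -0.61 without ABW 1. Or52n4d (NM_001000174) was at 5.71, 5.72 and 6.03 in LBW and at 5.95, 6.02 and 6.39 in ABW pups, with overlap and a difference of -0.30 (SE 0.15, adjusted p = 0.485 by limma), which was -0.16 without ABW 3. Or51e1 followed with -0.25. Or52n4c, at 5.997, 5.655 and 5.854 in LBW and 6.172, 6.087 and 5.838 in ABW pups, had a difference of -0.20, which was -0.11 without LBW 2 and -0.13 without ABW 1. Or56b6c had -0.18, and its difference was 0.04 without LBW 3, -0.50 without LBW 2, -0.08 without LBW 1, -0.03 without ABW 1 and -0.27 without ABW 3.

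The values of the groups did not overlap for 10 receptors (7.81%), with 6 higher and 4 lower in LBW, where 17.4% of all rows did not overlap (7.28% higher and 10.1% lower). Next to Or51f4, the largest of these above 0 were Or52e15c and Or52r1c. Or52e15c was at 5.26, 5.39 and 5.32 in LBW and 5.09, 5.07 and 5.14 in ABW pups, a difference of 0.23 (SE 0.08, adjusted p = 0.349 by limma). Or52r1c was at 5.61, 5.52 and 5.62 in LBW and 5.27, 5.41 and 5.42 in ABW pups, a difference of 0.22 (SE 0.09, adjusted p = 0.392 by limma). With Or51f4, these are the 3 receptors with an unadjusted p under 0.05. The largest below 0 were Or51b6 (-0.13), Or52ab2b (-0.12) and Or52ad1 (-0.12). In Or52ab2b, LBW 2 at 6.51 was just under ABW 1 at 6.51, a gap smaller than either SD.

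**Figure D4:**
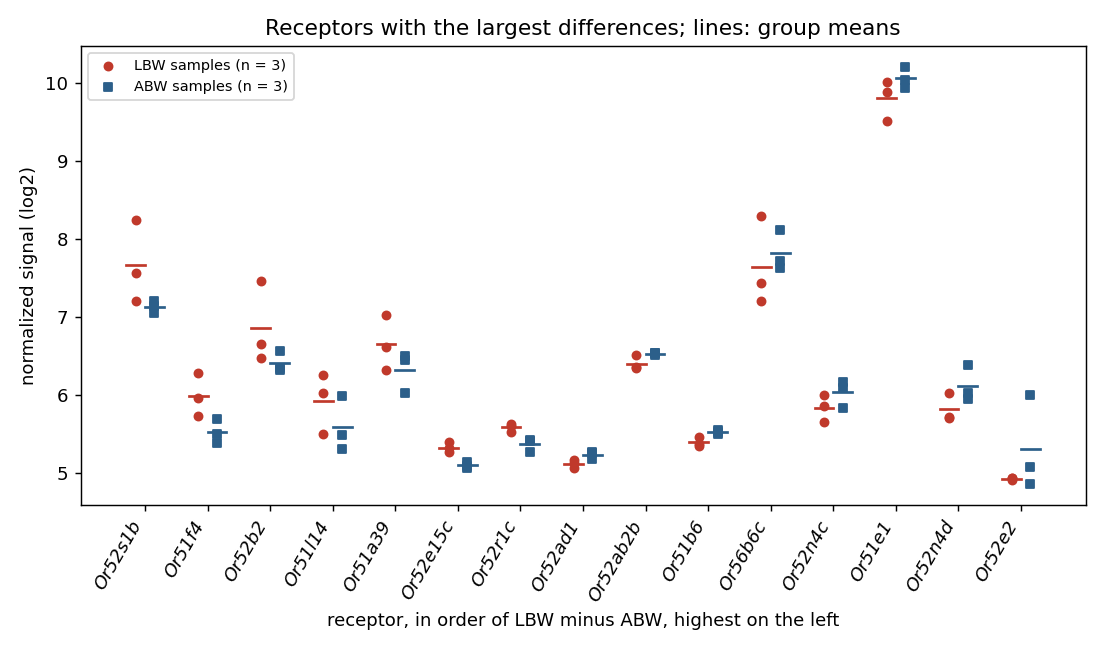
Normalized log2 signal (y axis) of 15 class I receptors (x axis, in order of LBW minus ABW) in the 3 LBW pups (red circles) and the 3 ABW pups (blue squares), with group means as lines. In Or52b2, 1 LBW pup lies apart at 7.46, and in Or52e2, 1 ABW pup at 6.0.

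Marker lists of other cell types held rows called by the study's rule on these same arrays. The bone list has 11 genes, of which 9 were matched to a row, and Sp7 to more than 1. Runx2 of this list was not matched, and the paper lists it as upregulated in LBW. All 10 matched rows were higher in LBW and 5 were called, against 44.4% higher and 4.28% called over all rows. The mean signal of the list was 7.84 to 11.42 in LBW and 7.23 to 7.55 in ABW pups. Of the 11 genes of the neutrophil precursor list 5 were matched to a row. Of these, 4 were called higher, with a list mean of 8.25 to 10.08 in LBW and 7.27 to 7.45 in ABW pups. Prtn3, the other matched row, had a mean of 5.89 and a difference of -0.07. Camp and Ngp of this list were not matched, and the paper lists both as upregulated in LBW. Of the adipocyte list (8 genes) 2 of 7 rows were called lower, with a list mean of 10.46 to 11.22 in LBW and 11.06 to 12.17 in ABW pups. Of the erythroid list (14 genes) 0 of 7 rows were called. LBW 2 was nearest to the ABW pups in the bone and neutrophil lists, whereas the mean of the 128 receptors was 5.75 to 5.85 in LBW and 5.75 to 5.77 in ABW pups. None of the 5 matched olfactory neuron markers was called, and all of them differed by at most 0.22 in size. In the tissue as a whole, fewer cells of a type and less RNA per cell cannot be told apart.

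The receptors' range gives a scale on which other dim signals of the study can be placed. Of all rows, 8658 (32.8%) had a mean signal at or below the receptors' 95th percentile of 6.79. The limit depends on how it is set, as 16531 rows lay at or below Or51e1, the highest receptor, and 10984 at or below Or56b6c, the next. Of these 8658 rows, 131 (1.51%) were called by the study's rule, compared to 5.63% of the 17761 above the limit. With the limit set in each group (6.85 in LBW, 6.82 in ABW), 82 of the 1131 called rows (7.25%) had both group means in the receptors' range and 145 had 1 of the 2 means there. Of all rows, called or not, 8422 had both means in that range. The rule called 0.97% of these, against 5.83% of the other 17997 rows.

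Of the 13 genes that the study picked from these array results to check by qRT-PCR, 6 had a group mean within the receptors' range, and in each the other group was above it. In LBW pups these were Edn1, the vasoconstrictor endothelin 1, Lep, the fat hormone leptin, and Ptchd1, a membrane protein of the patched family. Edn1 was at 6.37, 6.11 and 5.98 in LBW pups, with 104 of the 128 receptors below its mean, and at 7.60, 7.61 and 7.99 in ABW pups. Lep was at 5.91, 5.96 and 5.75 in LBW pups, with 78 receptors below its mean, and Ptchd1 was at 5.72, 5.93 and 5.44, with 67 below. ABW 1 was also in the range for both, at 6.05 and 5.91. In ABW pups these were the matrix metalloproteinases Mmp13, Mmp8 and Mmp9. Mmp13 was at 5.41, 5.40 and 5.57 in ABW pups, below the receptor median, with 48 receptors under its mean, while all 3 LBW pups (10.62, 8.59 and 12.78) were above the next-to-brightest receptor. Mmp8 was at 5.49, 6.09 and 6.03 and Mmp9 at 6.53, 5.96 and 6.24 in ABW pups, with 83 and 106 receptors under their means. Mmp9 in LBW 2, at 6.49, was inside the receptors' range as well. The paper reports that qRT-PCR, run on the RNA used for the arrays, gave changes comparable to those of the array for the genes it checked. How the receptors' level bears on the array fold changes of these 6 genes was not tested.

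**Figure D5:**
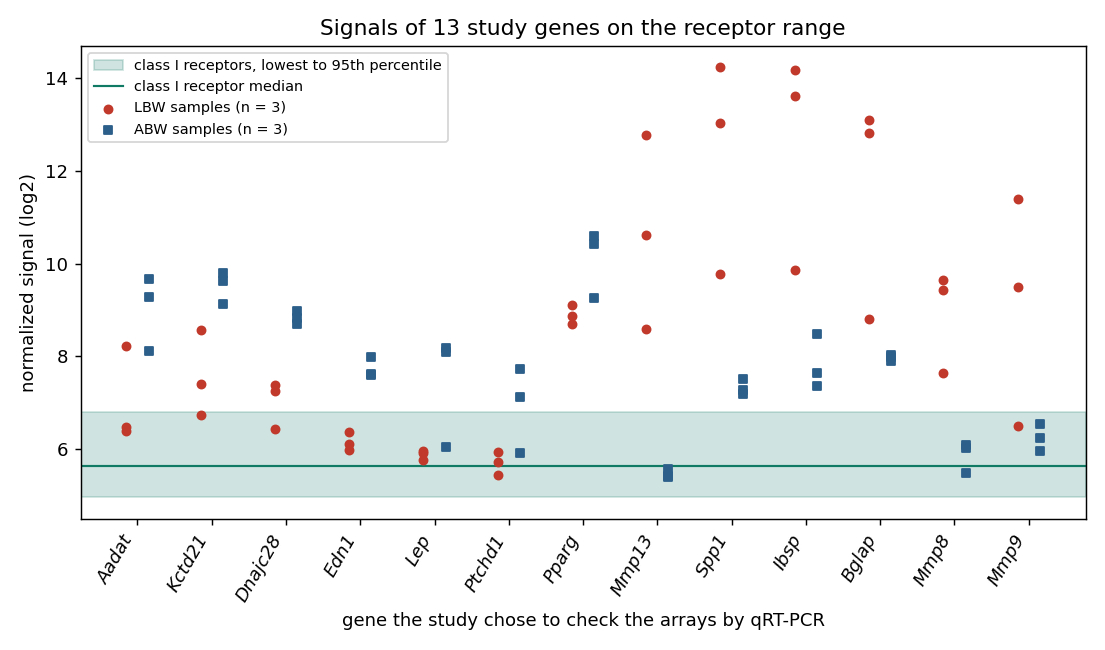
Normalized log2 signal (y axis) of the 13 genes picked from the array results for a check by qRT-PCR (x axis) in the LBW (red circles) and ABW pups (blue squares), over the range of the class I receptors from their lowest mean (4.95) to their 95th percentile (6.79) in green, with their median of 5.63 as a line. Mmp13 in ABW pups and Ptchd1 in LBW pups lie around the line.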

How the data were processed

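The 6 NimbleGen arrays, 3 for LBW and 3 for ABW muscle, hold 5 probes for each transcript. The authors deposited a normalized log2 value for every row on every array, and the submitters' processing notes name RMA. The background and probe-summary settings are not given in the sources used here. There is no read depth, and precision is set by how many arrays there are. The samples are labelled as biological replicates.

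Symbols came from the RefSeq gene table of GRCr8, matched on accession without version (9747 of 26419 rows). The 13 genes of the array check by qRT-PCR were found by the accessions in the paper. A gene of the lists or the cluster is said to have a row only where its symbol was matched. An unmatched gene can still be on the array. The design follows RGSC3.4, so coordinates are given only for the RefSeq windows, of which 113 of the 128 receptors have one. LBW minus ABW was fitted on all rows by linear models in R 4.3.3 (limma 3.58.1, eBayes, 2-sided, Benjamini-Hochberg over all rows). Other values were computed with pandas 2.3.3 and numpy 2.4.6 in Python 3.11.15. The fit was tested on simulated data. The genes named are the 5 brightest and 5 dimmest receptors, the 5 largest differences above and below 0, the 3 largest each way without overlap, and examples of the lists. The members, lists and rules were chosen with earlier results of these data known. Alternatives were the replicate block, each pup left out, quantile normalization, median centring, no dim rows, other variance models, array weights, the Student test, a fold change of 2, and other rules for rows and members. The planned comparison of receptor proteins was not run, and the first coding bases were compared instead.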

Additional observations from a re-analysis of the deposited data

How the results depend on the processing

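The number of class I receptors called by the study's rule was 0 under every alternative except leaving out a pup, where it ranged from 0 to 2 (Or52s1b without LBW 2, and Or52b2 and Or51f4 without LBW 3). After adjustment it was 0 under every alternative. Over all rows, 1131 became 586 by the Student test, 336 at a fold change of at least 2 and 806 to 1555 without 1 pup. The number after adjustment, 0, became 126 without LBW 2, the highest with any pup left out. With the replicate number as a block, 0 receptors were called, and the block gave 1236 calls over all rows. The deviations of same-numbered pups correlated at 0.087, 0.103 and 0.055. The labels do not give the litters, and these correlations cannot decide whether the numbers pair the pups. The median receptor difference lay between -0.04 (without the dimmest 25% of rows) and 0.04 (quantile normalization). The SD of the differences lay between 0.14 and 0.20 and the median level between 5.61 and 5.64. Without the dimmest 25% of rows, 105 of the 128 receptors drop out, so the -0.04 and the SD of 0.20 describe only the brighter receptors. The rows at or below the receptors' 95th percentile, 8658, became 16531 with the highest receptor as the limit, by construction. The difference of Or56b6c, -0.18, ran from -0.502 to 0.0411 with a pup left out, with the sign turned without LBW 3, and the cause was not tested. Leaving out Or51e1 was chosen after seeing the data, as was the limit at the next-to-brightest receptor, and the former took the share above the median from 0.78% to 0.00%. How far the receptors lie above background is unknown.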
